A study of Mus musculus with 6 samples.

Results

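The naive pluripotency transcription factors *Pou5f1*, *Sox2*, *Nanog*, *Klf2*, *Klf4*, *Klf5*, *Esrrb*, *Tfcp2l1*, *Zfp42* and *Tbx3* were followed by RNA-seq in mouse embryonic stem cells (mESCs). These 10 genes were chosen by name among the 55385 genes of the count table, and all 10 passed the filter on low counts that left 16951 genes for testing. The study removed a Polycomb-associated loop anchor at *Wnt6* (chr1:74771892-74785322 for the gene, GRCm38) by CRISPR-Cas9 and asked how expression responded in WT mESCs and in mESCs with a heterozygous or a homozygous deletion, with 2 libraries per genotype. The cells derive from G4 mESCs, an F1 hybrid of 129/Sv and C57BL/6, and all 3 genotypes grew with leukemia inhibitory factor (LIF) on CD1 feeder cells. The methods describe the mutant lines as screened clones and do not say which clone gave which library, so an effect of the deletion and a difference between clones cannot be told apart. The methods call the RNA-seq replicates biological, while the labels give 2 per genotype and do not say whether they came from separate cultures or clones, so p-values measure only the spread between these libraries. The counts hold mESC and feeder RNA together, and in bulk RNA fewer cells of a type and less RNA per cell cannot be told apart.

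Naive pluripotency is the state of the preimplantation epiblast, held in culture by LIF signaling. *Pou5f1* and *Sox2* encode partner proteins that bind composite DNA sites next to each other and form the core of the network with *Nanog*. Around this core, Krüppel-like factors, *Esrrb*, *Tfcp2l1* and *Tbx3* link LIF and WNT signaling to self-renewal, and *Zfp42* (also called Rex1) is a widely used marker of undifferentiated cells.

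The libraries held between 23813912 and 28964706 counts. The deletion is labeled by *Wnt6*, and the paper writes of genes within it in the plural. *Wnt6* had 11 and 13 counts in WT, 6 and 4 in heterozygous and 0 and 0 in homozygous deletion mESCs. The homozygous libraries thus had no count of *Wnt6*. At the depth of these libraries, 3 counts correspond to between 0.102 and 0.131 CPM, the read count scaled to library size. The 10 members together took between 0.156% and 0.180% of all counts, and *Pou5f1* alone supplied between 55.4% and 58.4% of the members' counts. The identity of the cells matched the label mESC: the members' defining genes were detected in every library, and so were fibroblast genes, whose levels are given beside the lineage lists.

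Per kb of annotated exon, the members spanned more than 2 orders of magnitude in WT mESCs. *Pou5f1* stood highest at 437 ± 5.61 CPM per kb (SD, n = 2), above 99.6% of the tested genes on this scale. *Sox2* (81.8 ± 1.29), *Zfp42* (67.8 ± 0.021) and *Nanog* (40.4 ± 0.955) followed. *Klf5* (21.4 ± 0.696) and *Esrrb* (20.8 ± 0.555) were next, and their WT libraries overlapped. *Klf2* (16.8 ± 0.139), *Klf4* (10.4 ± 0.0999) and *Tfcp2l1* (7.48 ± 0.299) came below them. *Tbx3* stood lowest at 1.13 ± 0.141 CPM per kb, above 31.6% of the tested genes. In the heterozygous libraries no neighbors in this order overlapped, and *Klf5* stood 1.36 times as high as *Esrrb*, against 1.03 times in WT. In the homozygous libraries *Sox2* and *Zfp42* overlapped, with a ratio of 1.01 against 1.21 in WT and 1.31 in heterozygous mESCs.

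**Figure D1:**
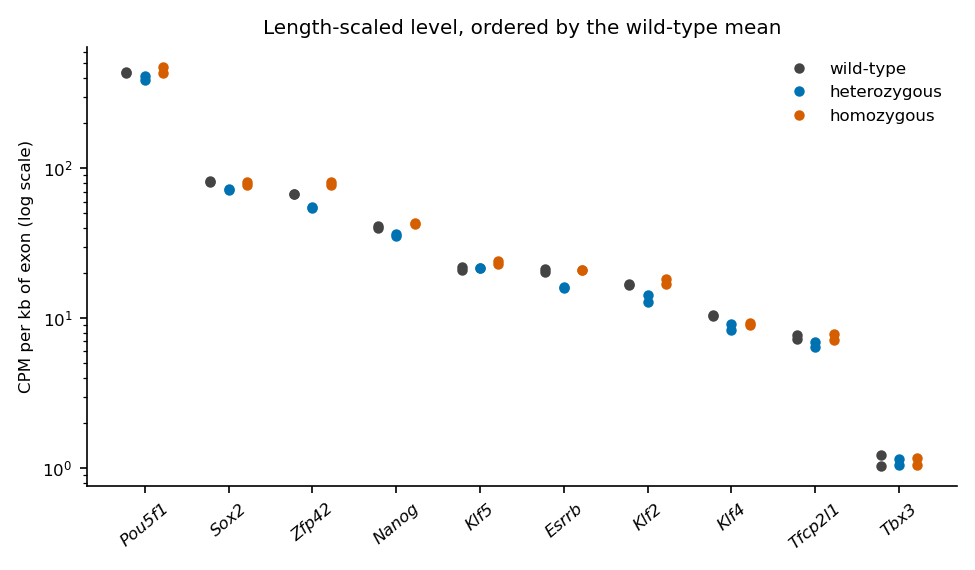
Level of each gene in CPM per kb of exon (log axis), one point per library, with genotypes side by side and genes ordered by the WT mean. *Pou5f1* (437 in WT) and *Tbx3* (1.13) mark the ends of the order, and *Zfp42* moves up to *Sox2* in the homozygous libraries.

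The promoters of *Nanog* and *Zfp42* are shown because they hold letter matches to motifs of factors of the network. In RefSeq's GRCm38.p6 promoter table, 8 of the 10 members matched with 11 promoters, each reaching from 250 bases before to 50 bases after a transcript start; *Klf5* and *Tbx3* had no entry. The 250 bases before the start are printed 5′ to 3′ on the gene's strand, with motif matches in capitals, for *Nanog* at chr6:122707239-122707488 (+ strand) and for *Zfp42* at chr8:43307010-43307259 (- strand).
Nanog: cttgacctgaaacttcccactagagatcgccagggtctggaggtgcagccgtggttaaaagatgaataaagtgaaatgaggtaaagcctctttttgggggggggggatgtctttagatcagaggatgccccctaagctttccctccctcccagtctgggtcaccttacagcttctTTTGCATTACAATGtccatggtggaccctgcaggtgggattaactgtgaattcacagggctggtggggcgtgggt
Zfp42: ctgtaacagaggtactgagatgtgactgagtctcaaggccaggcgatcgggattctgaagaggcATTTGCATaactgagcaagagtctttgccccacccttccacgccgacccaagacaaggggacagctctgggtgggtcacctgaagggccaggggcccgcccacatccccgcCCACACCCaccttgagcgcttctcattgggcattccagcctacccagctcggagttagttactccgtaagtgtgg
The capitals in *Nanog* mark TTTGCATTACAATG, in which an octamer without its first base is followed, after 1 base, by a SOX motif on the reverse strand without its first base. This arrangement begins 75 bases before the start and was added to the search after the promoter had been read. Searched on both strands, it was found in 2 of 32851 promoters (0.00609%), and both were *Nanog* promoters that overlap each other. Because the letters were taken from this promoter, the match in *Nanog* was given in advance and its share tests nothing. In *Zfp42* the capitals mark the octamer ATTTGCAT 186 bases before the start and, on the reverse strand, the KLF motif GGGTGTGG at 75 bases before it. These motifs were found in 1.74% and 3.56% of all promoters. The SOX motif CATTGTT (3.78% of all promoters) was found among the members only before a downstream start of *Pou5f1*, and the ESRRB motif TCAAGGTCA (0.423%) and the STAT motif TTCCNGGAA (1.15%) in none of their windows. A match is a description of the letters and not a measured site, and a window without one lacks only these letters.

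Across genotypes, most members had their lowest level in heterozygous deletion mESCs. Relative to WT, 5 of the 10 fell in heterozygous mESCs (*Sox2*, *Klf2*, *Klf4*, *Esrrb* and *Zfp42*) and 0 rose at an edgeR quasi-likelihood adjusted p under 0.05 (Benjamini-Hochberg over all tested genes), where 2.91% of all tested genes were lower and 2.23% higher. Relative to heterozygous mESCs, 7 rose in homozygous mESCs and 0 fell, beside 12.9% higher and 12.9% lower over all tested genes. Homozygous against WT mESCs, 2 rose (*Klf5* and *Zfp42*) and 1 fell (*Klf4*), beside 10.9% higher and 10.5% lower over all tested genes. These 3 comparisons share libraries and are not independent of each other.

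The changes were small. The members' median log2 fold change (log2FC) was -0.17 for heterozygous against WT, 0.035 for homozygous against WT and 0.17 for homozygous against heterozygous mESCs, beside medians over all tested genes of 3.7e-06, -0.0061 and -0.020. By edgeR, 0 members passed an absolute log2FC of 1 together with the adjusted p in any comparison, and DESeq2 also gave 0; 8, 3 and 8 members had an unadjusted edgeR p under 0.05. Over all tested genes 0.165%, 2.14% and 1.39% passed both thresholds. Of the 10010 tested genes at or above the level of the lowest member, 4.10% were lower in heterozygous than in WT mESCs and 19.3% were higher in homozygous than in heterozygous mESCs.

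The libraries themselves showed the same order. Both heterozygous libraries lay below the other 4 libraries for 7 of 10 members, against 12.3% of all tested genes. The heterozygous mean was the lowest of the 3 for 9 of 10 members, against 30.8% of tested genes. Among these 9, *Tbx3* had nearly equal means in heterozygous (7.313 CPM) and homozygous mESCs (7.315), and the heterozygous and homozygous libraries of *Klf4* overlapped. Heterozygous libraries did not overlap the WT libraries for 8 members, all lower, beside 24.0% lower and 23.7% higher without overlap over all tested genes. Homozygous and WT libraries did not overlap for 3 members that were higher and 1 that was lower (28.4% and 29.4% of tested genes). Homozygous libraries lay above heterozygous ones without overlap for 8 members (28.6% higher and 32.8% lower among tested genes). The count for heterozygous against WT fell to 2 when WT replicate 1, WT replicate 2 or heterozygous replicate 2 was left out, and *Esrrb* and *Zfp42* were the members called in every alternative run. The count of 3 for homozygous against WT was 1 without WT replicate 1, WT replicate 2 or homozygous replicate 2.

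**Figure D2:**
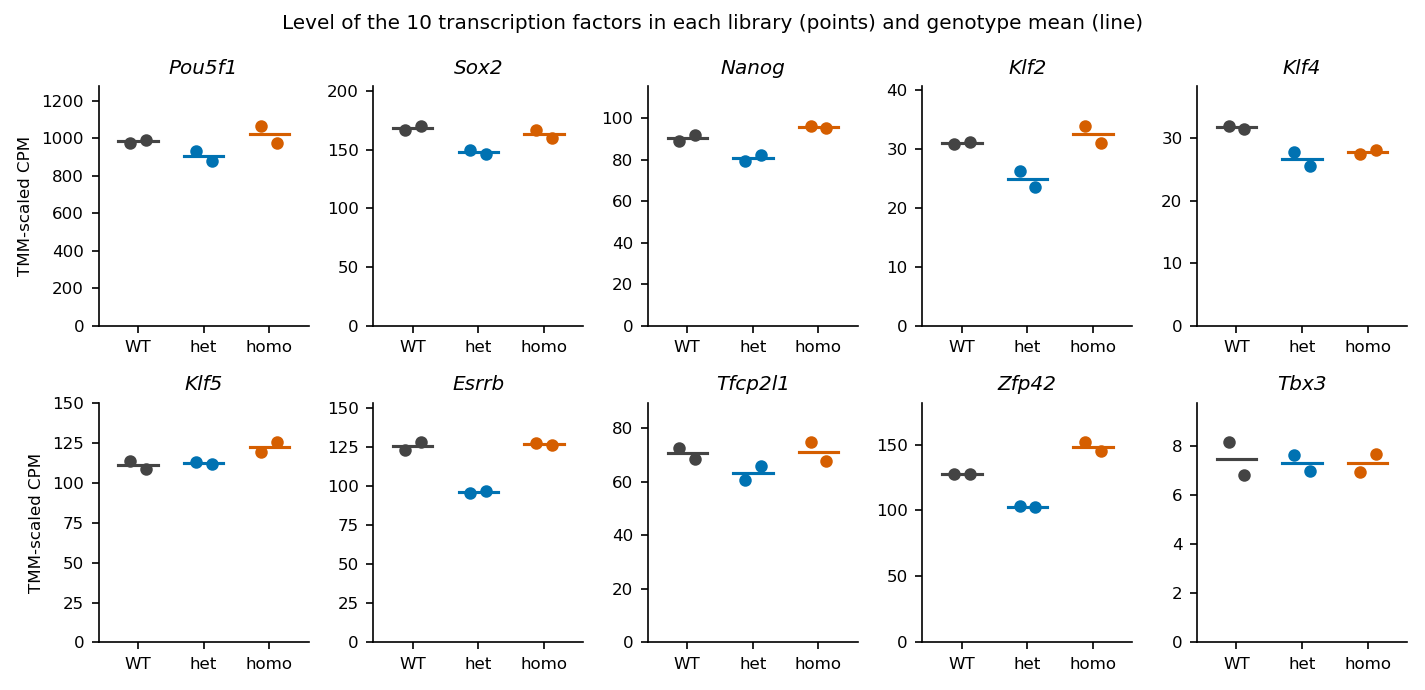
CPM scaled by trimmed mean of M-values (TMM) in each of the 6 libraries (points) with the genotype mean (line), one panel per gene and every axis from 0. Both heterozygous points lie lowest for *Pou5f1*, *Sox2*, *Nanog*, *Klf2*, *Esrrb*, *Tfcp2l1* and *Zfp42*, and the genotypes overlap for *Tbx3*.

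Among the core factors, *Pou5f1* (ENSMUSG00000024406, chr17:35506018-35510772), the POU-domain factor of the network, was at 974 and 992 CPM in WT, 931 and 876 in the heterozygous and 1065 and 977 in the homozygous libraries. Both heterozygous libraries were the lowest, and WT and homozygous libraries overlapped. *Pou5f1* was 13.0% higher in homozygous than in heterozygous mESCs (log2FC 0.18 ± 0.045 (SE), edgeR adjusted p = 0.00677). Its heterozygous value against WT missed the threshold at -0.12 (95% interval -0.22 to -0.027, edgeR adjusted p = 0.152), and homozygous against WT was 0.055 (-0.039 to 0.15). The rise over heterozygous mESCs was lost without heterozygous replicate 2 or homozygous replicate 1, and the heterozygous value against WT passed the threshold without either homozygous library.

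*Sox2* (ENSMUSG00000074637, chr3:34650405-34652461), the HMG-box partner of *Pou5f1*, was at 166 and 170 CPM in WT, 150 and 146 in the heterozygous and 167 and 160 in the homozygous libraries. The heterozygous libraries were again the lowest. *Sox2* fell by 0.19 ± 0.044 on the log2 scale in heterozygous mESCs (edgeR adjusted p = 0.0142) and was higher in homozygous than in heterozygous mESCs by 0.14 ± 0.044 (edgeR adjusted p = 0.0208). Homozygous against WT gave -0.042 (95% interval -0.13 to 0.049). The fall against WT was lost when any of the 4 libraries compared was left out (log2FC between -0.20 and -0.17 over all alternatives), and the rise over heterozygous mESCs without heterozygous replicate 1, heterozygous replicate 2 or homozygous replicate 1 and with total counts only.

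*Nanog* (ENSMUSG00000012396, chr6:122707489-122714633) is the homeodomain factor whose promoter is printed with its letter match. It was at 89.1 and 92.1 CPM in WT, 79.3 and 82.3 in the heterozygous and 96.2 and 95.05 in the homozygous libraries. The 3 genotypes did not overlap, with heterozygous lowest and homozygous highest. *Nanog* rose by 0.24 ± 0.048 in homozygous over heterozygous mESCs (edgeR adjusted p = 0.000756), a difference called in all 15 alternatives. Heterozygous against WT was -0.16 ± 0.047 with an edgeR adjusted p of 0.05001, just outside the threshold, and passed it in 7 of 15 alternatives, among them those without a homozygous library. Homozygous against WT was 0.079 (95% interval -0.020 to 0.18).

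The 3 Krüppel-like zinc-finger factors differed among themselves. *Klf2* (ENSMUSG00000055148, chr8:72319033-72321656) was at 30.8 and 31.1 CPM in WT, 26.2 and 23.5 in the heterozygous and 33.9 and 31.0 in the homozygous libraries. Its heterozygous libraries were lowest, and those of WT and homozygous mESCs overlapped. *Klf2* fell by 0.32 ± 0.072 on the log2 scale in heterozygous mESCs against WT (edgeR adjusted p = 0.0112) and rose by 0.38 ± 0.072 in homozygous over heterozygous mESCs (edgeR adjusted p = 0.000532). Homozygous against WT was 0.066 (95% interval -0.080 to 0.21). The fall against WT was lost without WT replicate 1, WT replicate 2 or heterozygous replicate 2, while the rise over heterozygous was called in all 15 alternatives.

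*Klf4* (ENSMUSG00000003032, chr4:55527143-55532466), a LIF-responsive factor that fibroblasts also transcribe, was at 32.0 and 31.6 CPM in WT, 27.8 and 25.6 in the heterozygous and 27.6 and 28.1 in the homozygous libraries. Both WT libraries were the highest, and the deletion genotypes overlapped. *Klf4* fell in heterozygous mESCs by 0.25 ± 0.066 (edgeR adjusted p = 0.0281) and in homozygous mESCs by 0.19 ± 0.066 (edgeR adjusted p = 0.0456), and homozygous against heterozygous was 0.062 (95% interval -0.080 to 0.20). The call in homozygous mESCs was lost in 8 of 15 alternatives, including those without any 1 of the 4 libraries compared, and that in heterozygous mESCs in 4, including those without WT replicate 1, WT replicate 2 or heterozygous replicate 2. The summed level of the fibroblast list was also highest in WT (6240 and 6189 CPM). It was lower in the homozygous (3335 and 3317) than in the heterozygous libraries (4664 and 4643), between which *Klf4* overlapped. The part of fibroblast RNA in the *Klf4* values was not tested.

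*Klf5* (ENSMUSG00000005148, chr14:99298691-99315036) was at 114 and 109 CPM in WT, 113 and 112 in the heterozygous and 119 and 125 in the homozygous libraries. It was the only member with its lowest mean in WT, and only the homozygous libraries stood apart. *Klf5* rose by 0.14 ± 0.046 in homozygous over WT mESCs (edgeR adjusted p = 0.0406), a call lost in 10 of 15 alternatives, among them leaving out any library but homozygous replicate 1. Heterozygous against WT was 0.017 (95% interval -0.080 to 0.11), and homozygous against heterozygous was 0.12 (0.023 to 0.22, edgeR adjusted p = 0.0651).

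**Figure D3:**
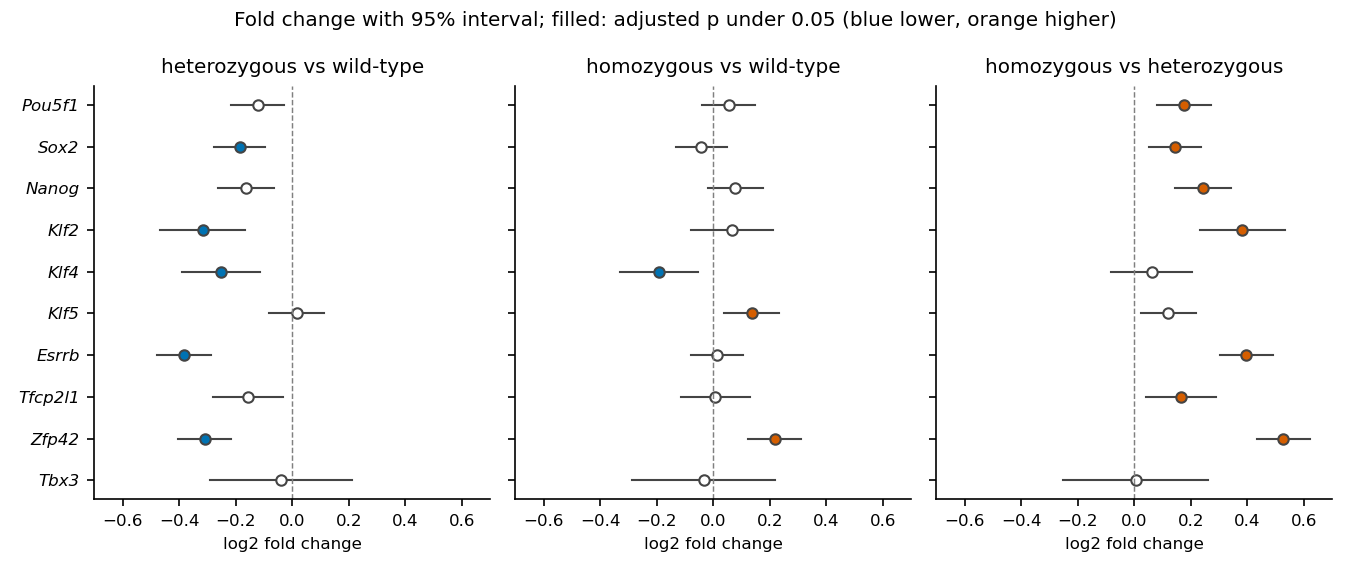
log2FC (points) with 95% intervals (lines) of the 10 members in the 3 genotype comparisons, filled where the edgeR adjusted p is under 0.05. Heterozygous against WT, 5 members are filled on the left of 0, and homozygous against heterozygous, 7 are filled on the right, led by *Zfp42* at 0.53.

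The nuclear receptor gene *Esrrb* (ENSMUSG00000021255, chr12:86361117-86521628), a target of WNT signaling that can take over functions of *Nanog*, was at 123 and 128 CPM in WT, 95.8 and 97.0 in the heterozygous and 128 and 126 in the homozygous libraries. The heterozygous libraries stood well below the other 4, which overlapped. *Esrrb* fell by 23.3% in heterozygous mESCs (log2FC -0.38 ± 0.045, edgeR adjusted p = 1.69e-05), the largest change of any member against WT in size. It was higher in homozygous than in heterozygous mESCs by 0.40 ± 0.045 (edgeR adjusted p = 1.55e-06), and homozygous against WT was 0.015 (95% interval -0.078 to 0.11). Both calls held in all 15 alternatives.

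*Tfcp2l1* (ENSMUSG00000026380, chr1:118627945-118685168), a grainyhead-like factor downstream of LIF, was at 72.6 and 68.6 CPM in WT, 60.8 and 66.0 in the heterozygous and 74.6 and 67.6 in the homozygous libraries. It is the only member on the chromosome of the deletion, 43.8 Mb from *Wnt6*. *Tfcp2l1* was higher in homozygous than in heterozygous mESCs by 0.16 ± 0.059 (edgeR adjusted p = 0.0472), which was lost in 8 of 15 alternatives, among them those without WT replicate 1, WT replicate 2, heterozygous replicate 1 or homozygous replicate 1. Both heterozygous libraries were the lowest, and WT and homozygous libraries overlapped. Against WT its values were -0.16 in heterozygous (95% interval -0.28 to -0.034, edgeR adjusted p = 0.156) and 0.0078 in homozygous mESCs (-0.11 to 0.13).

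*Tbx3* (ENSMUSG00000018604, chr5:119670669-119684724), a T-box factor that joins the network in only part of a culture grown in serum and LIF, was at 8.14 and 6.82 CPM in WT, 7.64 and 6.99 in the heterozygous and 6.94 and 7.69 in the homozygous libraries. All 3 genotypes overlapped. Its intervals were the widest of the members, from -0.29 to 0.21 for heterozygous and from -0.29 to 0.22 for homozygous against WT, at between 159 and 239 counts per library.

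*Zfp42* (ENSMUSG00000051176, chr8:43295063-43306980), the zinc-finger gene whose promoter is printed with its octamer and KLF matches, was at 128 and 128 CPM in WT, 104 and 102 in the heterozygous and 152 and 145 in the homozygous libraries. The 3 genotypes were fully separated, with heterozygous lowest and homozygous highest. *Zfp42* was the only member that passed the threshold in all 3 comparisons: it fell by 19.3% in heterozygous mESCs against WT (log2FC -0.31 ± 0.045, edgeR adjusted p = 0.000171), rose by 16.2% in homozygous mESCs against WT (0.22 ± 0.044, edgeR adjusted p = 0.00114) and was 44.1% higher in homozygous than in heterozygous mESCs (0.53 ± 0.045, edgeR adjusted p = 2.82e-08). All 3 calls held in all 15 alternatives.

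*Zfp42* and *Klf2* lie on chromosome 8, whose tested genes were shifted as a group between the genotypes. The other 888 tested genes of this chromosome had a median log2FC of -0.12 in heterozygous against WT, 0.40 in homozygous against WT and 0.51 in homozygous against heterozygous mESCs, and 89.0% of them were above 0 in homozygous against WT. Relative to this median, *Zfp42* was lower by 0.19 in heterozygous and by 0.18 in homozygous mESCs against WT, and 0.017 above it in homozygous against heterozygous mESCs. *Klf2* differed from it by -0.19, -0.33 and -0.13. In homozygous against WT mESCs, *Zfp42* and *Klf2* thus lay in the lower part of their own chromosome, at percentiles 23.0 and 14.5. Without these genes, 3 of 8 members fell in heterozygous against WT, 1 rose and 1 fell in homozygous against WT, and 5 rose in homozygous against heterozygous mESCs, with medians of -0.16, 0.011 and 0.15. For the other members' chromosomes, the median of the other tested genes lay between -0.048 and 0.022 in every comparison. The chromosome 8 shift, the deletion and the clone cannot be told apart in these libraries.

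**Figure D4:**
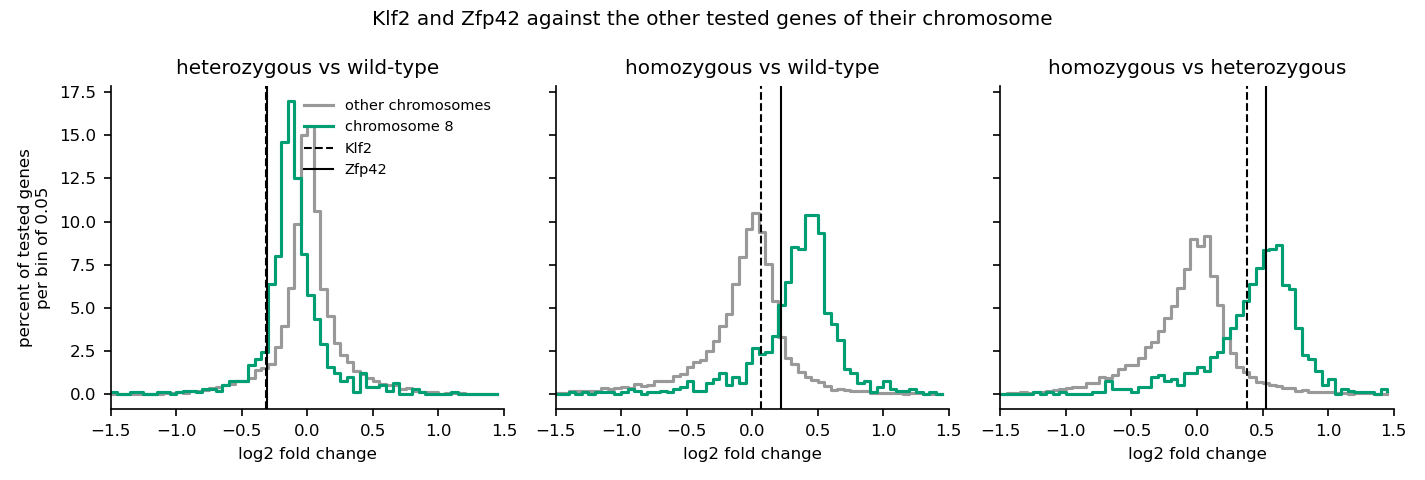
Distribution of log2FC (percent of genes per bin of 0.05) for the tested genes of chromosome 8 other than *Klf2* and *Zfp42* (green) and of the other chromosomes (grey), with *Klf2* (dashed) and *Zfp42* (solid) as vertical lines. In homozygous against WT mESCs the green distribution is centered near 0.40 and both genes lie to its left.

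Among other genes of the pluripotency network, falls outnumbered rises in heterozygous against WT mESCs, and rises outnumbered falls in homozygous against heterozygous mESCs. Of 26 such genes, none of them a member and all tested, 12 fell and 0 rose in heterozygous against WT mESCs (median log2FC -0.16, 16 at an unadjusted edgeR p under 0.05). In homozygous against WT mESCs 7 rose and 3 fell (0.058), and in homozygous against heterozygous mESCs 17 rose and 0 fell (0.19). Of all tested genes, 2.91%, 10.5% and 12.9% were lower and 2.23%, 10.9% and 12.9% higher in these 3 comparisons. The nuclear receptor gene *Nr0b1* fell in heterozygous against WT mESCs by 0.46 (edgeR adjusted p = 0.000239), from 33.6 and 36.7 CPM to 25.1 and 26.0, and stood at 40.3 and 37.7 in homozygous libraries. *Nr5a2*, an activator of *Pou5f1*, fell by 0.39 (edgeR adjusted p = 0.00494, called in 13 of 15 alternatives), and in homozygous over heterozygous mESCs it rose by 0.67 (edgeR adjusted p = 2.13e-06). *Fbxo15*, an F-box gene used as a reporter of pluripotency, rose by 0.42 in homozygous over WT mESCs (edgeR adjusted p = 2.93e-06) and by 0.71 over heterozygous mESCs (edgeR adjusted p = 2.64e-09). *Sall1* followed *Zfp42* with -0.40, 0.34 and 0.74 and also lies on chromosome 8. *Gbx2*, a LIF and STAT3 target, fell in homozygous against WT mESCs by 0.56 (edgeR adjusted p = 0.000341). It also fell in heterozygous against WT mESCs, by 0.36 (edgeR adjusted p = 0.0360, called in 10 of 15 alternatives). The adhesion gene *Jam2* fell by 0.37 in heterozygous and by 0.30 in homozygous mESCs against WT. The other gene that fell in homozygous against WT mESCs was *Eras*, chosen after its values were seen, at -0.23. The count of 12 fell to between 3 and 7 when a library of WT or heterozygous mESCs was left out: 5 without WT replicate 1, 3 without WT replicate 2, 7 without heterozygous replicate 1 and 4 without heterozygous replicate 2. The count of 10 in homozygous against WT mESCs was 4 without WT replicate 1.

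Of 12 tested genes of the LIF, WNT and BMP inputs to the network, 1 rose in heterozygous against WT mESCs. In homozygous against WT mESCs 2 rose and 1 fell, and in homozygous against heterozygous mESCs 3 fell. The medians were -0.0076, -0.016 and 0.034. Beside these counts, 2.23%, 10.9% and 12.9% of all tested genes were higher and 2.91%, 10.5% and 12.9% lower. With 12 genes, counts this small are not read as a change of the inputs as a group. The BMP targets *Id2* (log2FC 0.42, edgeR adjusted p = 0.000141) and *Id1* (0.30, edgeR adjusted p = 0.00925) rose in homozygous over WT mESCs, and the ligand gene *Bmp4* fell by 0.41 (edgeR adjusted p = 0.00187). *Id3*, another BMP target of the list, was at -0.13 there (edgeR adjusted p = 0.337), with both homozygous libraries below both WT libraries. *Id2* was also the gene that rose in heterozygous against WT mESCs (0.36, edgeR adjusted p = 0.00280). *Il6st*, the signaling subunit of the LIF receptor, fell in homozygous against heterozygous mESCs by 0.26 (edgeR adjusted p = 0.000715), as did the WNT target *Axin2* by 0.38 (edgeR adjusted p = 0.00465). The count in heterozygous against WT mESCs was 0 without WT replicate 1 and 2 without homozygous replicate 1 or 2, and that in homozygous against heterozygous mESCs was 1 without homozygous replicate 2.

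Genes of the formative and primed states, which follow naive pluripotency, fell or did not pass the test in both deletion genotypes against WT mESCs. Of 12 tested, 3 fell and 0 rose in heterozygous against WT mESCs (median log2FC -0.15, 6 at an unadjusted edgeR p under 0.05). In homozygous against WT mESCs 4 fell and 0 rose (-0.14, 5 at an unadjusted edgeR p under 0.05), and in homozygous against heterozygous mESCs 3 rose and 3 fell (0.048). The shares of all tested genes were 2.91%, 10.5% and 12.9% lower and 2.23%, 10.9% and 12.9% higher. *Otx2*, a driver of the exit from the naive state, fell by 0.37 in heterozygous against WT mESCs (edgeR adjusted p = 0.00366), and *Foxd3* fell by 0.49 (edgeR adjusted p = 0.00365). *Pou3f1*, a POU factor of the primed epiblast, fell by 0.55 in homozygous against WT mESCs (edgeR adjusted p = 9.06e-07), from 62.1 and 59.1 CPM to 42.6 and 40.2. *Otx2*, *Foxd3* and *Dnmt3a* rose in homozygous over heterozygous mESCs (called in 3, 13 and 9 of 15 alternatives), and *Pou3f1*, *Cdh2* and *Sall2* fell (15, 11 and 4 of 15). The counts shrank when libraries were left out: in heterozygous against WT mESCs to 1 without WT replicate 2 or heterozygous replicate 1, in homozygous against WT to 2 without WT replicate 2, and in homozygous against heterozygous mESCs to 3 without WT replicate 1, 1 without heterozygous replicate 1, 2 without heterozygous replicate 2 and 2 without homozygous replicate 1.

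**Figure D5:**
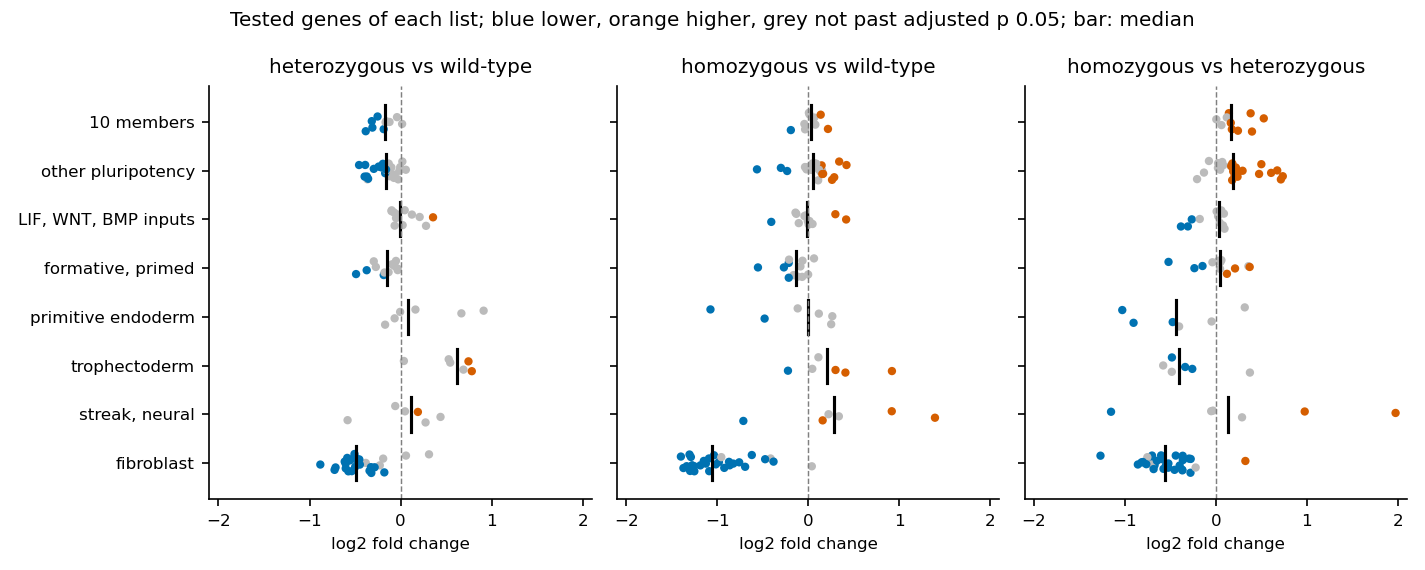
log2FC of the tested genes of each list in the 3 comparisons, with the list median as a bar and genes past an edgeR adjusted p of 0.05 colored (orange higher, blue lower). The members and the other pluripotency genes share medians of -0.17 and -0.16 in heterozygous against WT mESCs, while the fibroblast list lies at -0.48 there and at -1.06 in homozygous against WT mESCs.

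Markers of other lineages were tested where they had enough counts. For comparison, 2.23% of all tested genes were higher and 2.91% lower in heterozygous against WT mESCs. The shares were 10.9% and 10.5% in homozygous against WT, and 12.9% and 12.9% in homozygous against heterozygous mESCs. Of 8 primitive endoderm genes 6 were tested, and 0 passed the threshold in heterozygous against WT mESCs by edgeR or DESeq2 (3 at an unadjusted edgeR p under 0.05), 2 fell in homozygous against WT (*Pdgfra* and *Dab2*, which fibroblasts also transcribe) and 3 fell in homozygous against heterozygous mESCs (*Gata6* with these). The most abundant of them, *Lama1*, gave 0.16 in heterozygous against WT mESCs (edgeR adjusted p = 0.252) and *Dab2* gave -0.0049. The lineage-defining factors *Gata6* and *Gata4*, chosen after their values were seen, were higher in both heterozygous than in both WT libraries without passing the threshold. They gave 0.91 (95% interval 0.24 to 1.59, edgeR adjusted p = 0.126) and 0.67 (0.22 to 1.12, edgeR adjusted p = 0.0830, called in 4 of 15 alternatives). *Gata6* was low, at between 0.548 and 1.58 CPM. Of the 6 genes, 3 lay above 0 and 3 below in this comparison (median log2FC 0.079). *Sox7*, another factor of the list, was at -0.065, with both heterozygous libraries below both WT libraries. Without homozygous replicate 1 or 2, 1 passed in heterozygous against WT mESCs. Of 7 trophectoderm genes 6 were tested, and the keratin genes *Krt8* and *Krt18* rose in heterozygous against WT mESCs by 0.75 (edgeR adjusted p = 9.11e-09) and 0.78 (edgeR adjusted p = 1.35e-09). All 6 lay above 0 in this comparison (median log2FC 0.62, 5 at an unadjusted edgeR p under 0.05). *Cdx2* (0.69, edgeR adjusted p = 0.152) and *Gata3* (0.55, edgeR adjusted p = 0.130), chosen after their values were seen, did not pass the threshold. Both had heterozygous libraries above both WT libraries, at low levels. *Krt18* was at 226 and 235 CPM in WT, 396 and 396 in the heterozygous and 291 and 276 in the homozygous libraries, so that it was highest in the genotype in which most members were lowest. In homozygous against WT mESCs, 3 trophectoderm genes rose (both keratins and *Gata3*) and 1 fell (*Tfap2c*), and 3 fell in homozygous against heterozygous mESCs (both keratins and *Tfap2c*). Of 9 primitive streak and neural genes 6 were tested, of which 1 rose in heterozygous against WT mESCs (*Nes*), 3 rose (*Sox1*, *Pax6* and *Nes*) and 1 fell (*T*) in homozygous against WT, and 2 rose (*Sox1* and *Pax6*) and 1 fell (*T*) in homozygous against heterozygous mESCs. The count of 1 was 0 when any WT or heterozygous library was left out, and that of 4 was 2 without WT replicate 1. *Sox1*, a neural gene on chromosome 8, was at 2.62 and 2.74 CPM in WT, 1.93 and 1.65 in the heterozygous and 7.34 and 6.76 in the homozygous libraries.

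Most fibroblast genes fell in both deletion genotypes, where 2.91% (heterozygous) and 10.5% (homozygous) of all tested genes were lower than in WT. In homozygous against heterozygous mESCs 12.9% of all tested genes were lower and 12.9% higher. Of 32 fibroblast genes 30 were tested, and 25 fell in heterozygous against WT mESCs (median log2FC -0.48), 27 fell in homozygous against WT (-1.06), and 26 fell and 1 rose in homozygous against heterozygous mESCs (-0.56). The gene that rose was *Mmp2* on chromosome 8, chosen after its values were seen. *Lox*, which crosslinks collagen, was at 247 and 253 CPM in WT, 168 and 172 in the heterozygous and 98.0 and 95.6 in the homozygous libraries. The list's summed level was between 6189 and 6240 CPM in WT, 4643 and 4664 in the heterozygous and 3317 and 3335 in the homozygous libraries, while *Lum* and *Fap* did not exceed 5 counts. This level was highest in WT and lowest in the homozygous libraries. Its part in the members' values was not tested.

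Across the 6 libraries, the members rose and fell together to different degrees. Of their 45 pairs, 14 had a Pearson correlation of log2 CPM above 0.8, with a median of 0.64 over all pairs. The share over pairs of all tested genes is not given here, so the count is not read as a trait of the members. *Nanog* and *Zfp42* were most alike (0.97), followed by *Pou5f1* and *Klf2* (0.96). *Klf4* and *Klf5* were least alike (-0.29), and of the 7 pairs below 0, 6 held *Tbx3*. Among the 9325 genes with a mean of at least 10 CPM, the nearest to *Pou5f1* was *Oaz1* (0.998), to *Esrrb* was *Pck2* (0.999), to *Klf2* was *Mycn* (0.997), to *Nanog* was *Itgb1* (0.997) and to *Zfp42* was *Sall1* (0.996). *Itgb1* and *Sall1* lie, like *Zfp42*, on the shifted chromosome 8. The nearest to *Sox2* was *Ndufa6* (0.984), to *Klf4* was *Pald1* (0.994), to *Klf5* was *Slf2* (0.996) and to *Tfcp2l1* was *Cnnm2* (0.989). These correlations describe 6 points that share 3 genotypes and their scaling, and they carry no test.

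Some members share stretches of sequence with other annotated genes. *Zfp42-ps1*, a processed pseudogene, shares 164 of the 1925 exonic 50-base words of *Zfp42* (8.52%) and had 1232 counts in all against 19557 for *Zfp42*, so reads of the shared stretch are uncertain. Its own values were -0.39 in heterozygous (edgeR adjusted p = 0.0652) and -0.12 in homozygous against WT mESCs (edgeR adjusted p = 0.525). *Nanog* shares 23 of its 2232 words (1.03%) with *Trim6*, which had 40859 counts against 13805 for *Nanog*. The antisense gene *Gm19553* overlaps 317 exonic bases of *Pou5f1* and had 89 counts against 150218. The library kit marks strand, and whether counting used it is not given in the sources used here. *Klf2*, *Sox2* and *Esrrb* shared no such word with any other gene.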

How the data were processed

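RNA-seq was performed on polyA RNA of WT, *Wnt6* heterozygous and *Wnt6* homozygous deletion mESCs, and genotype and replicate number were taken from the sample labels (2 libraries each; the methods state biological triplicates). The files deposited by the authors hold unnormalized whole-number read counts for each gene. The submitters' processing notes name Trimmomatic 0.39, STAR 2.6.1d, SAMtools 1.9, featureCounts 1.6.4, DESeq2 1.22.2 and the build mm10 (GRCm38), without parameters. No library had a count for any of the 37 mitochondrial genes.

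Genes were tested if 2 or more libraries reached 10 counts. Counts were scaled by TMM and fitted over all 6 libraries with the quasi-likelihood method of edgeR 4.0.16 in R 4.3.3, and a gene was called at a Benjamini-Hochberg adjusted p under 0.05. CPM are TMM-scaled, and the annotation was GRCm38. The floor of 3 counts covers counting error only. The members and lists were chosen with earlier results of these data known. Named from each other list were up to 4 called genes with the largest change per comparison, or the 2 most abundant where none was called, and the genes most correlated with each member (the nearest of 2 is given; that of *Tbx3* is not reported here). Alternative fits used total counts only, the size factors or the Wald test of DESeq2 1.42.0, other filters, only the libraries compared, robust estimation, the replicate number as a block, or left out each library in turn. In each genotype the replicates varied beyond sampling noise (chi-square per degree of freedom between 2.21 and 3.38).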

Additional observations from a re-analysis of the deposited data

Results flagged for a closer look

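*Zfp42* moved in opposite directions in the deletion genotypes against WT mESCs: it fell in heterozygous and rose in homozygous mESCs, and the test of the difference itself, homozygous against heterozygous mESCs, gave a log2FC of 0.53 (edgeR adjusted p = 2.82e-08, both homozygous libraries above both heterozygous libraries). The median of the other tested genes of chromosome 8 in the same comparison was 0.51.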

How the results depend on the processing

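Of 450 refitted member values (30 log2FCs under 15 alternatives), 393 kept their call, 43 lost it, 14 gained it and 0 called values changed sign; no member passed the fold threshold under any alternative. In homozygous against WT mESCs the members called numbered 1 by DESeq2, 1 with all genes that had any count and 1 with the replicate block, against 3. With single libraries left out (the lone library of a genotype is then assumed to vary like the others), the members called ranged from 2 to 7 in heterozygous against WT and from 1 to 2 in homozygous against WT mESCs, and the other pluripotency genes from 3 to 14 and from 4 to 9. The LIF, WNT and BMP inputs ranged from 0 to 2 in heterozygous against WT and from 1 to 4 in homozygous against heterozygous mESCs, the formative and primed genes from 1 to 3, from 2 to 4 and from 1 to 4 in the 3 comparisons, the primitive endoderm genes from 0 to 1 in heterozygous against WT, and the streak and neural genes from 0 to 1 and from 2 to 4 against WT. Fitting only the libraries compared gave 2 inputs and 1 primitive endoderm gene in heterozygous against WT mESCs, all genes with any count also gave 1 primitive endoderm gene, total counts only gave 7 formative and primed genes in homozygous against WT, and DESeq2 gave 2 and the replicate block 3 of them in homozygous against heterozygous mESCs; the cause was not tested. Same-numbered libraries did not deviate together over all tested genes (correlations of 0.026, -0.12 and 0.011). The labels do not say whether the numbers pair libraries, and this check cannot decide it. With the replicate number as a block, 5, 1 and 6 members were called. With the homozygous numbers crossed, an alternative chosen after seeing the data, 6, 3 and 7 were called. With 2 libraries per genotype, changes as small as those of *Tfcp2l1* and *Klf5* lie at the limit of the test.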
